A study of Mus musculus with 4 samples.

Results

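Mitochondrial ribosomal proteins, the protein building blocks of the ribosome inside mitochondria, were followed in mouse gastrocnemius (a calf muscle) with and without extra PPARα, a nuclear receptor, in the muscle fibres. Members were all genes whose symbol in the probe annotation is Mrpl (large subunit) or Mrps (small subunit) followed by a number, taken from probe sets that carry 1 gene symbol, with the brightest probe set standing for the gene. There were 74 of them, 47 of the large and 27 of the small subunit by symbol, among 12393 genes with such a probe set, and all 74 passed the filter on dim signals that left 8400 genes to test. The 4 muscle samples were each measured on 1 Affymetrix array, from total RNA. The transgenic samples (MCK-PPARa, n = 2, replicates 1 and 2) carry PPARα under the muscle creatine kinase promoter, which is active in striated muscle fibres. The controls (non-transgenic, NTG, n = 2, replicates 1 and 2) are wild-type littermates with no transgene. The sources used here give no age, sex, strain, transgene line or treatment. The series describes 2 mice of each genotype, but apart from replicate numbers nothing links arrays with mice, so the p-values rest on the spread among these 4 arrays alone.

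The mitochondrial ribosome makes the few proteins that mitochondrial DNA encodes, all of them subunits of the respiratory chain and of ATP synthase. Its ribosomal RNAs come from mitochondrial DNA, whereas every one of its proteins is encoded in the nucleus, made in the cytosol and imported. The small subunit binds the messenger RNA and decodes it, and the large subunit joins the amino acids and releases the chain through an exit tunnel next to the inner membrane. Many of the proteins descend from bacterial ribosomal proteins and others were added in the mitochondrial lineage. Skeletal muscle holds many mitochondria, and PPARα activates genes for the use of fatty acids, much of which takes place in mitochondria. The comparison therefore asks whether the genes for this translation machine differ between muscle with raised PPARα and control muscle.

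The members lay on 17 chromosomes. RefSeq promoter windows (assembly GRCm38.p6, 250 bases before to 50 after the gene start) were at hand for 65 of the 74. Each window was searched on both strands for 4 motifs. The ETS core CCGGAA, bound by factors such as GABP, stood in 37 of the 65 (56.9%), against 30.3% of the genes tested on the array and 16.7% of all genes with a window. The share was 56.1% for the large subunit (41 genes) and 58.3% for the small subunit (24 genes). The YY1 core AAGATGG was found in 12 (18.5%, against 8.57% of genes tested and 7.28% of all genes). The NRF1 site GCGCATGCGC was found in 3, Mrpl9, Mrpl32 and Mrpl39 (4.62%, against 2.20% and 1.07%). NRF1 and GABP are known as activators of nuclear genes for mitochondrial proteins. A PPAR response element, searched as AGGTCANAGGTCA, was in 0 of the 65 genes (0.0147% of genes tested and 0.0481% of all genes). So strict a pattern matched only 1 of 6782 genes tested, so finding 0 among the members does not show that they lack such elements. These matches are letters in a window and not measured binding, and no 2 different motifs overlapped in the 71 windows of the members. The promoters printed here are those of Mrpl14 and Mrpl11, which had the highest and the lowest change between genotypes and hold none of the 4 motifs, and of Mrpl32 and Mrpl39, which hold both an ETS core and an NRF1 site. Each runs from 5′ to 3′ along the gene's strand, with the motifs in capitals.
Mrpl14, chr17:45686099-45686398, plus strand: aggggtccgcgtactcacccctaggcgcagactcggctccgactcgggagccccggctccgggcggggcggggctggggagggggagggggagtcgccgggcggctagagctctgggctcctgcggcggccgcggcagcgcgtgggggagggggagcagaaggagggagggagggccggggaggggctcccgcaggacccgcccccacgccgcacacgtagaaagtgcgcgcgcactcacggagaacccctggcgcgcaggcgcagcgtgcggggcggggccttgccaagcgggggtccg
Mrpl11, chr19:4962056-4962355, plus strand: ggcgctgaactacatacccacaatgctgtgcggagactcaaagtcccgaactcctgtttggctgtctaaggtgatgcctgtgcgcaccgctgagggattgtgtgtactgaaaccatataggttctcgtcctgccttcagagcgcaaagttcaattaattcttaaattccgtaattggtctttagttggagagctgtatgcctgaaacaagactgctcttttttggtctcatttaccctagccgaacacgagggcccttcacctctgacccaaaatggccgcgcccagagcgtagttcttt
Mrpl32, chr13:14612988-14613287, minus strand: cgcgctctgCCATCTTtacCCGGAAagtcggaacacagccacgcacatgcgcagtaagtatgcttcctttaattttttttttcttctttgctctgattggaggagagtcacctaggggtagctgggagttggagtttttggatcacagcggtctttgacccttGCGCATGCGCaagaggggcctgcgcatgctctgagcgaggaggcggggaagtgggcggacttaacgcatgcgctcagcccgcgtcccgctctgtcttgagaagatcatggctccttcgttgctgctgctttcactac
Mrpl39, chr16:84735195-84735494, minus strand: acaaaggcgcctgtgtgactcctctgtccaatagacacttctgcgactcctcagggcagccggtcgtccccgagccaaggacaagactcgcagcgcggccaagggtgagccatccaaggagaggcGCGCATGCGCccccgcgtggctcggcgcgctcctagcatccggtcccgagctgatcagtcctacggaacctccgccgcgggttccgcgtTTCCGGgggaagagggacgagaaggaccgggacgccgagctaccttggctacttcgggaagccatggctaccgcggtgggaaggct
In Mrpl32 the NRF1 site begins 87 bases, the ETS core 231 bases and a YY1 core, on the other strand, 241 bases before the gene start. In Mrpl39 the NRF1 site begins 125 bases and the ETS core, on the other strand, 36 bases before it. The values of all 4 genes are given with their subunit.

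**Figure D1:**
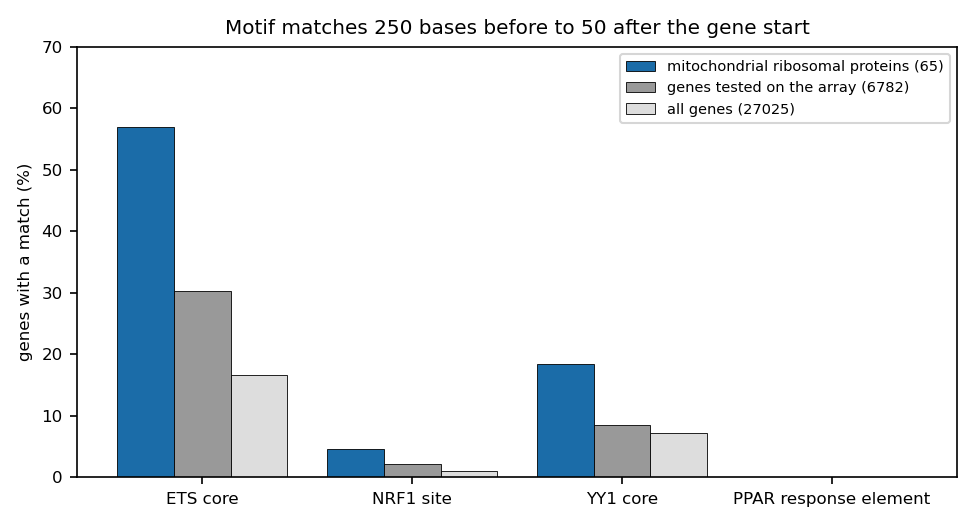
Share of genes (%, vertical axis from 0) with at least 1 match to each of 4 motifs in the promoter window, for 65 mitochondrial ribosomal protein genes, 6782 genes tested on the array and 27025 genes in all. The ETS core has the tallest bar for the members, at 56.9%. The PPAR response element, a strict pattern with 1 match among the 6782 genes tested, has no match among the members.

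Skeletal muscle markers were bright on all arrays, and the Ppara probe set read higher on both transgenic arrays. The 8 skeletal muscle markers had summed signals of 1155350 to 1203610 in NTG and 1195110 to 1353380 in MCK-PPARa, in arbitrary units of the scanner. Ppara was at 633 and 2674 in NTG, and its MCK-PPARa values were 7969 and 15226 (8.02-fold, limma adjusted p = 0.21, and 0.0012 with replicate number as a block). Of 6 adipocyte markers on the array with a single symbol, 5 passed the filter and 4 of these were higher in MCK-PPARa, among them Fabp4 (1.93 ± 0.38, SE) and Adipoq (1.34 ± 0.31) on the log2 scale, while Car3 was lower on both transgenic arrays (55050 and 63846 against 38728 and 34811, -0.69 ± 0.31, limma adjusted p = 0.88). Their summed signals, mostly Car3, were 62985 to 71461 in NTG and 52728 to 67670 in MCK-PPARa. Neither Fabp4 nor Adipoq passed (limma adjusted p = 0.19 and 0.29), although both did with replicate number as a block (0.0043 and 0.023). No tested marker of endothelium, macrophages, fibroblasts, red blood cells, nerve or smooth muscle passed with or without the block (limma adjusted p of 0.11 or more). The part of other cell types in the values of the members was not tested. In a piece of whole muscle, fewer cells of a type and less RNA per cell cannot be told apart.

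No mitochondrial ribosomal protein gene passed the test of MCK-PPARa against NTG, either up or down. A change is the mean log2(signal + 64.2) of MCK-PPARa less that of NTG, with its standard error (SE, n = 2 per group). It was tested with limma's moderated test and Benjamini-Hochberg adjustment over all 8400 genes at 0.05. By that rule 0 of 74 members were called, beside 5 of 8400 genes (0.0595%), so a count of 0 among 74 does not set the members apart. At an unadjusted p under 0.05 there was 1 member, Mrpl14, beside 5.85% of all genes. The lowest adjusted p among members was 0.72. With replicate number as a block 196 genes passed (2.33%) and again 0 members (lowest limma adjusted p = 0.086), with 3 members at an unadjusted p under 0.05 (Mrpl14, Mrpl11 and Mrpl55) beside 14.6% of all genes.

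The changes of the members were small and fell on both sides of 0. Their median was 0.03, with 42 above and 32 below 0 (the share above 0 was 55.5% among all genes tested, whose median was 0.05). The members' median was 0.21 without NTG replicate 1, 0.12 without MCK-PPARa replicate 2, 0.018 without MCK-PPARa replicate 1 and -0.06 without NTG replicate 2, so its sign rested on single arrays. With median centring it was -0.04. The quartiles of the changes were -0.11 and 0.22. An absolute change over 0.58, which is a fold of about 1.5, was reached by 2 of 74, Mrpl14 and Mrpl11, beside 17.7% of all genes. A stricter filter on dim signals kept 72 members, still with 2 past that size, and 5837 genes, of which 14.9% were. Low shares past 0.58 were also found for cytosolic ribosomal proteins (9.30%), complex I subunits (5.88%) and subunits of complexes III, IV and V (4.88%). On NTG replicate 1 the median signal was 4059 for the members, against 1374 for all genes tested. Summed over the 74 genes, the signal was 382533 (replicate 1) and 296421 (replicate 2) for NTG, against 355382 and 334530 for MCK-PPARa. Both transgenic sums thus lay between the control sums. For 40 members the 95% confidence interval of the change lay within -1 and 1, so a change of 2-fold or more was outside the interval for these. For the rest the interval reached past a bound, and a test that misses there does not show that the level was the same.

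**Figure D2:**
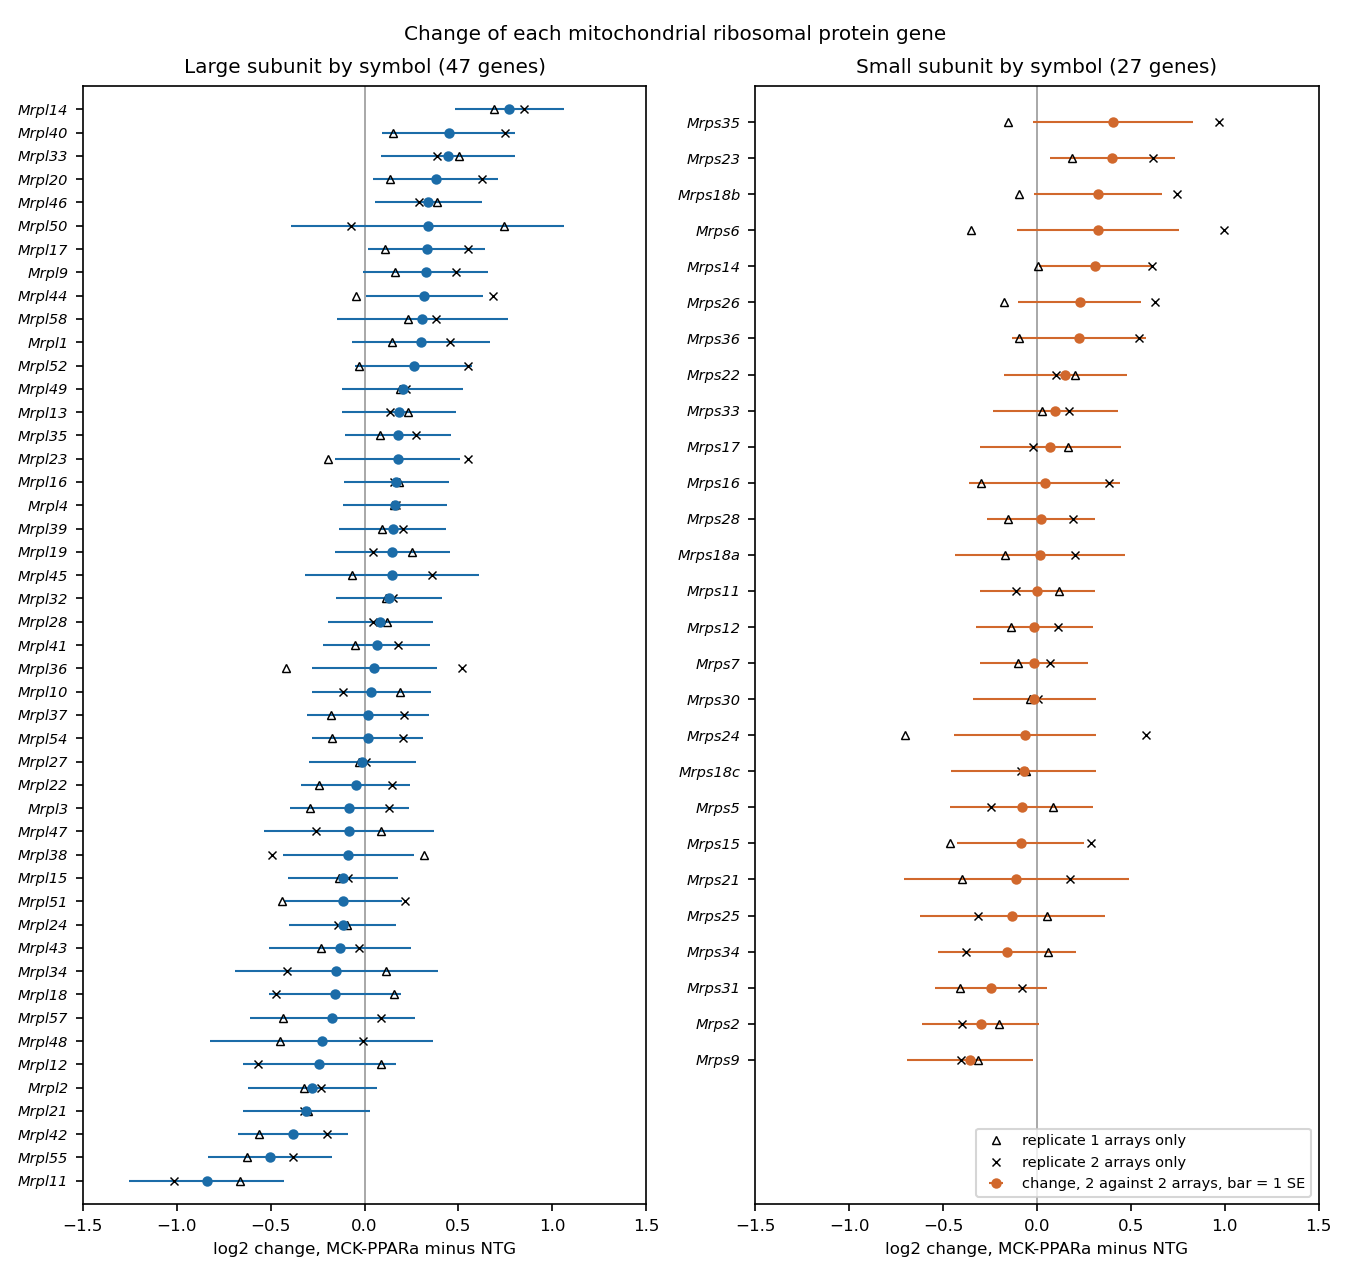
Log2 change (horizontal axis, MCK-PPARa minus NTG) of each of the 47 large-subunit and 27 small-subunit genes, filled points with bars of 1 SE from limma (n = 2 per group), triangles for the replicate 1 arrays alone and crosses for the replicate 2 arrays alone. Most bars cross 0, Mrpl14 stands at the top with 0.77 and Mrpl11 at the bottom with -0.84.

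Of the large subunit, Mrpl14 was the member with the highest value. Its protein sits where the subunits meet, and there it is a docking point for the assembly factor Malsu1. The NTG signals were 7965 and 6487 and the MCK-PPARa signals 12890 and 11747. Both transgenic arrays lay above both controls, and the difference had the same sign within each replicate number (0.69 and 0.85). The change was 0.77 ± 0.29 (95% interval 0.10 to 1.44, 1.71-fold), with an unadjusted limma p of 0.029 and an adjusted p of 0.72, so it did not pass.

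Mrpl11, whose protein lies at the base of the stalk that receives translation factors, had the lowest value. It read 7017 and 4426 in NTG, against 4400 and 2159 in MCK-PPARa. The groups were apart by a narrow margin, 4426 against 4400, and in each genotype the replicate 1 array was the higher. The change was -0.84 ± 0.41 (95% interval -1.79 to 0.11, limma adjusted p = 0.90), with -0.67 within replicate 1 and -1.01 within replicate 2. It ranged from -1.34 without MCK-PPARa replicate 1 to -0.34 without MCK-PPARa replicate 2, and was -0.51 without NTG replicate 1. Of its 3 other probe sets, the brightest gave -0.37 (5006 and 2714 in NTG, 4042 and 2003 in MCK-PPARa), the next 0.06 and the dimmest, at signals of 22.9 to 119.6, gave 0.54. The probe sets of Mrpl11 therefore differed in sign, and their mean gave a change of -0.15.

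The next large-subunit genes above 0 did not pass either. Mrpl40 read 972 and 1012 in NTG, against 1085 and 1743 in MCK-PPARa (0.45 ± 0.35). Mrpl33 read 618 and 698 against 901 and 932 (0.44 ± 0.36), and Mrpl46 read 2817 and 2990 against 3707 and 3676 (0.34 ± 0.28). In all 3 the genotypes did not overlap, but each change was little more than its SE. Mrpl20 (0.38 ± 0.33) and Mrpl50 (0.34 ± 0.72) overlapped between groups. The limma adjusted p of these 5 genes ran from 0.96 to 0.99.

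At the lower end stood Mrpl55, at 5574 and 3679 in NTG, against 3589 and 2809 in MCK-PPARa (-0.50 ± 0.33, limma adjusted p = 0.96). Mrpl42 read 23940 and 19731 against 16211 and 17169 (-0.38 ± 0.29, limma adjusted p = 0.96). The genotypes did not overlap in these genes, although a dim second probe set of Mrpl42, at 49.7 to 271.9, gave 0.42. Mrpl21 (-0.31 ± 0.34), Mrpl2 (-0.28 ± 0.34), whose protein lies near the centre where peptide bonds form, and Mrpl12 (-0.24 ± 0.41) overlapped between groups. Mrpl12 and Mrpl10 together build the stalk, and Mrpl10 gave 0.04 ± 0.32, from 3317 and 4832 in NTG, against 3790 and 4454 in MCK-PPARa. Both were above 0 within replicate 1 (0.09 for Mrpl12 and 0.19 for Mrpl10) and below it within replicate 2 (-0.57 and -0.12).

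Among the brightest large-subunit probe sets, Mrpl51 gave -0.11 ± 0.31 and Mrpl23 gave 0.18 ± 0.33, while Mrpl47 among the dimmest gave -0.08 ± 0.45. Brightness of different probe sets is no measure of relative transcript amount. The 2 members with both an NRF1 site and an ETS core had changes smaller than their SE. Mrpl32, whose maturation is known to be a step in assembling the ribosome, read 3476 and 3336 in NTG, against 3760 and 3706 in MCK-PPARa (0.13 ± 0.28). Mrpl39 read 4297 and 3681 against 4593 and 4252 (0.15 ± 0.29). Their 95% intervals were -0.52 to 0.78 and -0.51 to 0.81.

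**Figure D3:**
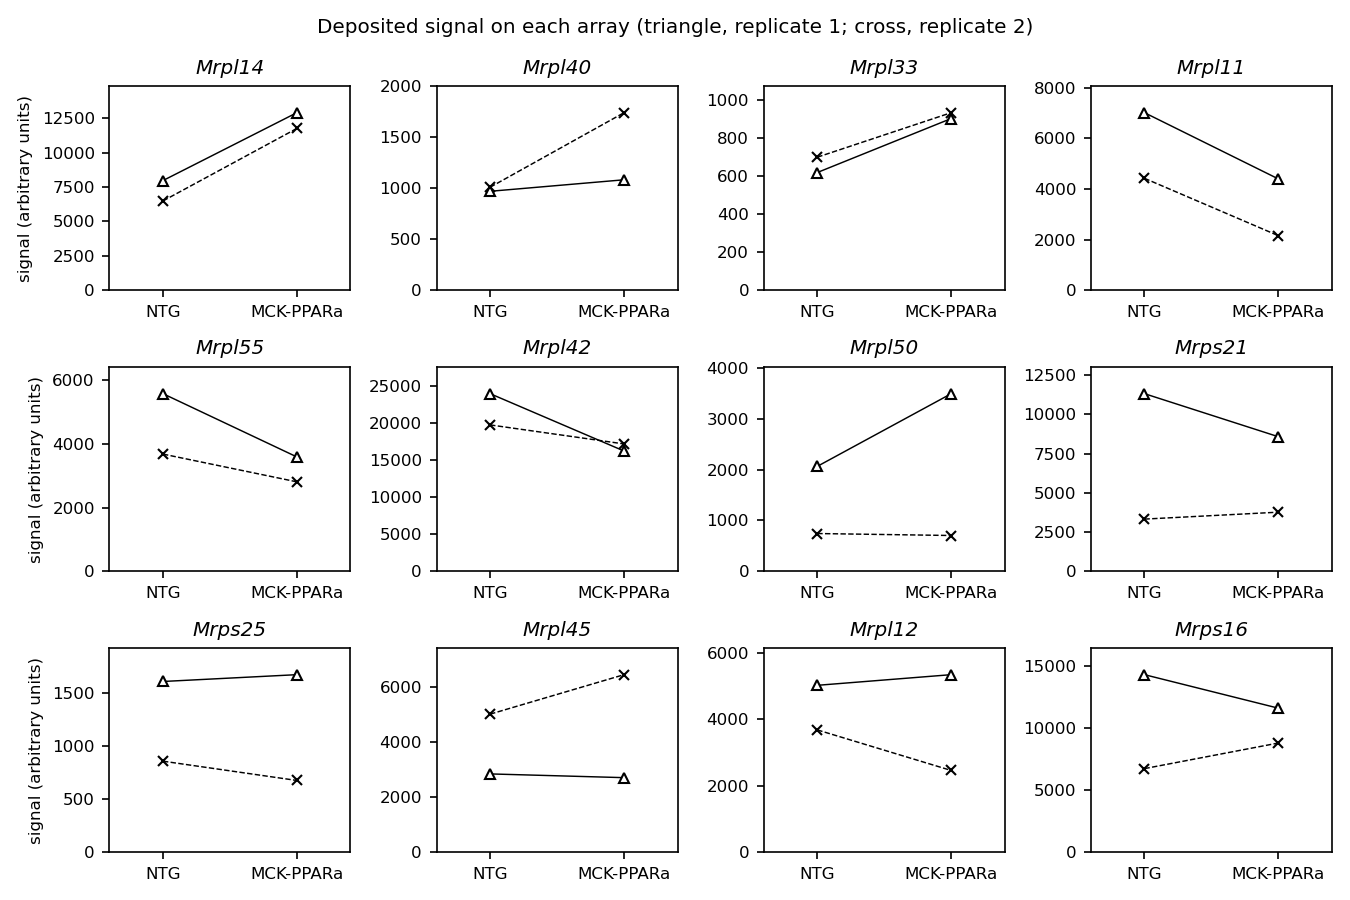
Deposited signal (vertical axis, arbitrary units from 0) of the brightest probe set of 12 members on each of the 4 arrays, with NTG and MCK-PPARa joined by a solid line for replicate 1 (triangles) and a dashed line for replicate 2 (crosses). Both lines rise for Mrpl14 and fall for Mrpl11, whereas in Mrpl50, Mrps21 and Mrps25 the lines run far apart and mark the replicate number.

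In the small subunit the changes ran from -0.36 to 0.41. The highest value was that of Mrps35, at 1956 and 2127 in NTG, against 1748 and 4220 in MCK-PPARa (0.41 ± 0.43), where a single array was high. Mrps23 read 3563 and 4271 against 4064 and 6586 (0.40 ± 0.33), although its second probe set, at 773 to 1997, gave -0.30. Mrps6 gave 0.32 ± 0.43 and Mrps26 0.23 ± 0.33, and in both the sign differed between the replicate numbers. Mrps14 read 6442 and 5451 in NTG, against 6465 and 8384 in MCK-PPARa (0.31 ± 0.30), the only small-subunit gene with both transgenic arrays above both controls. At the other end Mrps9 read 1049 and 1301 against 831 and 969 (-0.36 ± 0.34), and Mrps31 read 2160 and 1902 against 1610 and 1793 (-0.25 ± 0.30). These were the small-subunit genes with both transgenic arrays below both controls. Other probe sets of Mrps9, at 614 to 1060, gave 0.16, -0.03 and 0.55, whereas the second set of Mrps14 kept its sign (0.18). Mrps2 (-0.30 ± 0.31), Mrps34 (-0.16 ± 0.37), Mrps25 (-0.13 ± 0.49) and Mrps21 (-0.11 ± 0.60) overlapped between groups. A second probe set of Mrps2 gave 0.15. No small-subunit gene had a limma adjusted p below 0.96.

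Some members of the small subunit by name have a special place. Mrps12, at the decoding site, read 4081 and 4874 in NTG, against 3699 and 5276 in MCK-PPARa (-0.01 ± 0.31). Mrps16, among the brightest probe sets, gave 0.04 ± 0.40. The 3 Mrps18 genes encode related proteins, each with its own place in the ribosome: Mrps18a gave 0.02 ± 0.45, Mrps18b 0.33 ± 0.34 and Mrps18c -0.07 ± 0.39. Mrps18a and Mrps30 (-0.01 ± 0.33) are named for the small subunit, but their proteins are found in the large subunit in mammalian ribosome structures. Mrps36 (0.22 ± 0.36) is now known as a component of the 2-oxoglutarate dehydrogenase complex rather than of the ribosome.

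The large and small subunits did not part by genotype. The median change was 0.06 over the 47 large-subunit genes (28 above and 19 below 0) and 0.003 over the 27 small-subunit genes (14 above and 13 below). Their difference, large minus small, was 0.06, with 0.19 within replicate 1 and -0.02 within replicate 2. A difference that changes sign between the replicate numbers is within the spread of these samples. The median log2 level of the large subunit exceeded that of the small by 0.20 and 0.40 on the NTG arrays and by 0.24 and 0.27 on the MCK-PPARa arrays, so the transgenic arrays lay between the controls. With Mrps30 and Mrps18a counted in the large subunit the difference was 0.05.

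A minority of members had genotypes that did not overlap. In the large subunit 9 genes had both transgenic arrays above both controls and 4 had both below, and in the small subunit the counts were 1 and 2. Together that is 16 of 74, or 21.6%, beside 34.2% of all genes tested (20.3% above and 13.8% below). Such a share was not particular to the members. It was 23.3% for cytosolic ribosomal proteins, 17.6% for complex I subunits and 24.4% for subunits of complexes III, IV and V. Changes of the same sign within both replicate numbers were found in 27 of 47 large-subunit genes and 8 of 27 small-subunit genes, beside 61.2% of all genes. Close agreement between replicates was seen in Mrpl4 (6518 and 6443 in NTG, 7275 and 7244 in MCK-PPARa, 0.16 ± 0.28) and Mrpl16 (6128 and 6312 against 6969 and 7035, 0.17 ± 0.28), both named after their values were seen. Their genotypes did not overlap, yet the differences were smaller than the SE that limma assigns from the spread of all genes.

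Members with and without a bacterial counterpart were also set side by side, a split chosen after the values were seen. The 43 genes counted as having a counterpart in bacterial ribosomes had a median change of -0.01 (21 above and 22 below 0). The 30 counted as without one had a median of 0.08 (20 above and 10 below). Within replicate 1 the medians were 0.005 and -0.05, and within replicate 2 they were 0.11 and 0.20. The order of these groups thus turned with the replicate number. Mrps36 was left out of this split. The placing of some genes is open to question: Mrps18c was counted with the first group, but the related Mrps18a and Mrps18b, and also Mrps28, with the second.

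Replicate number separated the members more than genotype did. The difference between replicate 1 and replicate 2, averaged over the genotypes, exceeded the genotype difference in 54 of 74 members (73.0%), beside 56.9% of all genes. In 44 members the 2 arrays of one replicate number lay wholly above the 2 of the other, 30 with replicate 1 above (40.5%) and 14 with it below (18.9%). Over all genes tested 48% were apart in this way, 21.2% with replicate 1 above and 26.8% with it below. Across the members the replicate 1 minus replicate 2 differences of the NTG arrays and of the MCK-PPARa arrays had a correlation of 0.71, against 0.46 across all 8400 genes. Genes are not independent replicates, and the arrays of one number share whatever that number marks, so these are descriptions.

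Mrpl50 had the widest replicate difference, at 2063 and 744 in NTG, against 3491 and 705 in MCK-PPARa. Both replicate 1 arrays were well above both replicate 2 arrays, by 3.49-fold on average. Its other probe set did not show this order, at 583 and 741 in NTG, against 788 and 764 in MCK-PPARa. There the log2 difference, replicate 1 minus replicate 2, averaged -0.14, so the wide gap belongs to the brightest probe set alone. Mrps21 read 11328 and 3333 in NTG, against 8583 and 3775 in MCK-PPARa, a 2.75-fold difference by replicate number. Mrps25 (2.06-fold) showed the same order, as did Mrpl48 (2.74-fold), Mrpl34 (2.42-fold) and Mrpl58 (2.01-fold), the last 3 named after their values were seen. Other probe sets did not share these gaps. On the log2 scale, replicate 1 minus replicate 2, they gave 0.20 for Mrpl48 and -0.70 for Mrpl34. The dim sets of Mrps25 gave -0.10 and -0.19, while Mrps21 and Mrpl58 had only 1 single-symbol probe set each. Mrpl58 encodes an enzyme of the large subunit that frees the peptide from stalled ribosomes. The reverse order was widest in Mrpl45, whose protein anchors the ribosome at the inner membrane: 2847 and 5016 in NTG, against 2712 and 6448 in MCK-PPARa (named after its values were seen).

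The array's 18S ribosomal RNA controls also went with replicate number. Their 5′ set read 2202 (NTG) and 2313 (MCK-PPARa) in replicate 1, against 28.9 and 44.7 in replicate 2, and the middle set read 1781 and 2212 against 64.0 and 102. Their part in the replicate difference of the members was not tested. Within replicate 1, 34 of 74 members were higher in MCK-PPARa (median -0.04), and within replicate 2 there were 49 (median 0.15).

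**Figure D4:**
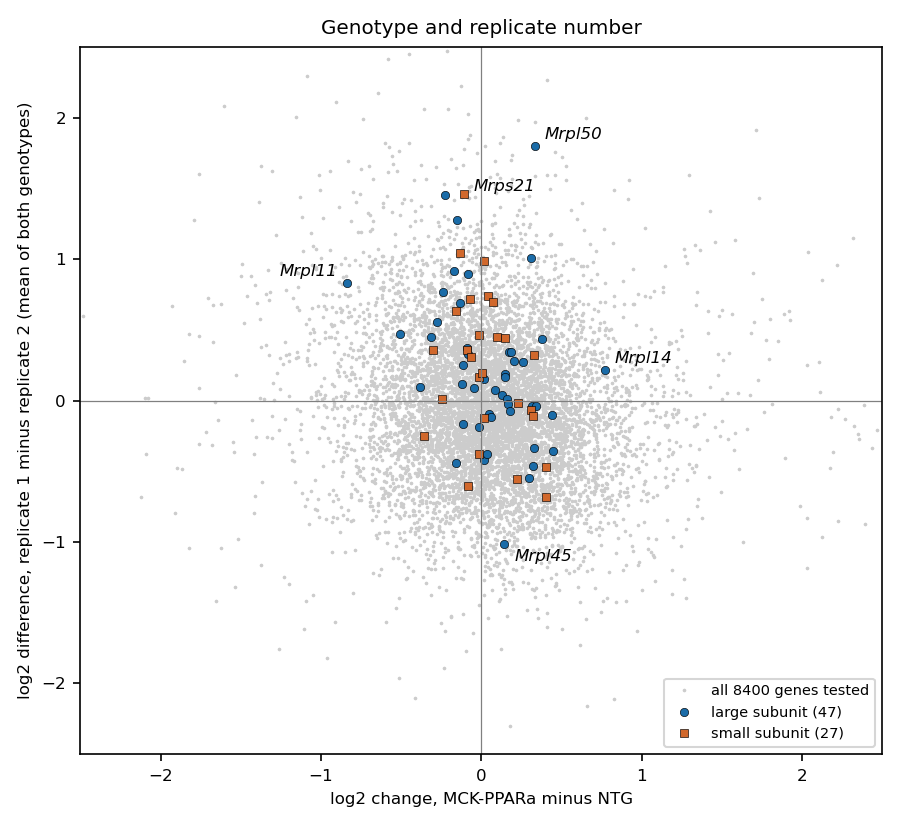
Genotype change (horizontal axis, log2, MCK-PPARa minus NTG) against the replicate 1 minus replicate 2 difference (vertical axis, log2, mean of both genotypes) for 8400 genes tested (grey), 47 large-subunit genes (circles) and 27 small-subunit genes (squares), with 23 genes outside the axes of 2.5. The members form an upright cloud that reaches further along the replicate axis, up to Mrpl50, than along the genotype axis.

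Other proteins of the ribosome and of mitochondrial translation gave no call by genotype. Ptcd3, a small-subunit protein that binds RNA, read 2950 and 3507 in NTG, against 4570 and 5431 in MCK-PPARa, with both transgenic arrays above both controls and the same difference in each replicate number (0.62 ± 0.29, limma adjusted p = 0.89). The other 2 small-subunit proteins outside the symbol rule were Dap3 (0.25 ± 0.31), a GTP-binding protein, and Chchd1 (-0.24 ± 0.29). Gadd45gip1 of the large subunit gave -0.21 ± 0.52.

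Of 8 translation factors tested, 7 had a change above 0 (beside 55.5% of all genes) and 0 passed (median 0.29, against 0.05 for all genes). Only 4 of the 8 had the same sign within both replicate numbers. In 7 of the 8 the replicate difference exceeded the genotype difference. The elongation factor Gfm1, which moves the ribosome along the messenger, read 2329 and 4184 in NTG, against 4033 and 6246 in MCK-PPARa (0.67 ± 0.38, limma adjusted p = 0.96). The groups overlapped, while within each replicate number the transgenic array was higher (0.78 and 0.57). The initiation factor Mtif2 gave 0.32 ± 0.33, and the formyltransferase Mtfmt, which readies the initiator transfer RNA, gave 0.31 ± 0.37. Of 21 assembly and ribosomal RNA modification genes, 10 were above and 11 below 0 and 0 passed (median -0.01). The smallest unadjusted p values there belonged to the protease subunits Spg7 (0.77 ± 0.45) and Afg3l2 (-0.53 ± 0.32) of one complex, which differed in sign, and to Mterf4 (0.67 ± 0.42), all with a limma adjusted p of 0.96. Spg7 was dim, at 512 and 345 in NTG, against 611 and 951 in MCK-PPARa. Mterf4 read 402 and 418 against 618 and 770. The NTG signals of Mterf4, and the lower one of Spg7, lay under the filter level of 423.

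Genes that drive mitochondrial DNA transcription or mitochondrial biogenesis were also without a call in this fit, at 0 of 17. After Ppara itself, the smallest unadjusted p values were those of the coactivator Ppargc1b (0.56 ± 0.37) and the transcription factor Tfb2m (-0.57 ± 0.41). Both changed sign between replicate 1 and replicate 2 (-0.08 and 1.20 for Ppargc1b, 0.22 and -1.37 for Tfb2m). Ppargc1a gave -0.04 ± 0.30, Tfam -0.20 ± 0.30, Nrf1 0.08 ± 0.30 and Gabpa 0.10 ± 0.43, the last being the ETS subunit of GABP.

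Cytosolic ribosomal and respiratory chain genes were set beside the members, whose median change was 0.03. Some subunits of complex I and of complexes III, IV and V are made on the mitochondrial ribosome. The median change was 0.11 over 43 cytosolic ribosomal protein genes, 0.22 over 34 complex I genes and 0.27 over 41 genes of complexes III, IV and V. These medians were larger within replicate 2 (0.25, 0.45 and 0.45, against 0.15 for the members) than within replicate 1 (-0.03, 0.02 and 0.12, against -0.04). No gene of these groups passed (limma adjusted p of 0.72 or more), and no difference between the groups was tested. All 3 groups shared the lean towards replicate 1, with replicate 1 above replicate 2 in 55.8%, 58.8% and 48.8% of their genes. Their median replicate differences were 0.55, 0.70 and 0.58 on the NTG arrays and 0.25, 0.28 and 0.17 on the MCK-PPARa arrays, against 0.29 and 0.02 for the mitochondrial ribosomal proteins.

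**Figure D5:**
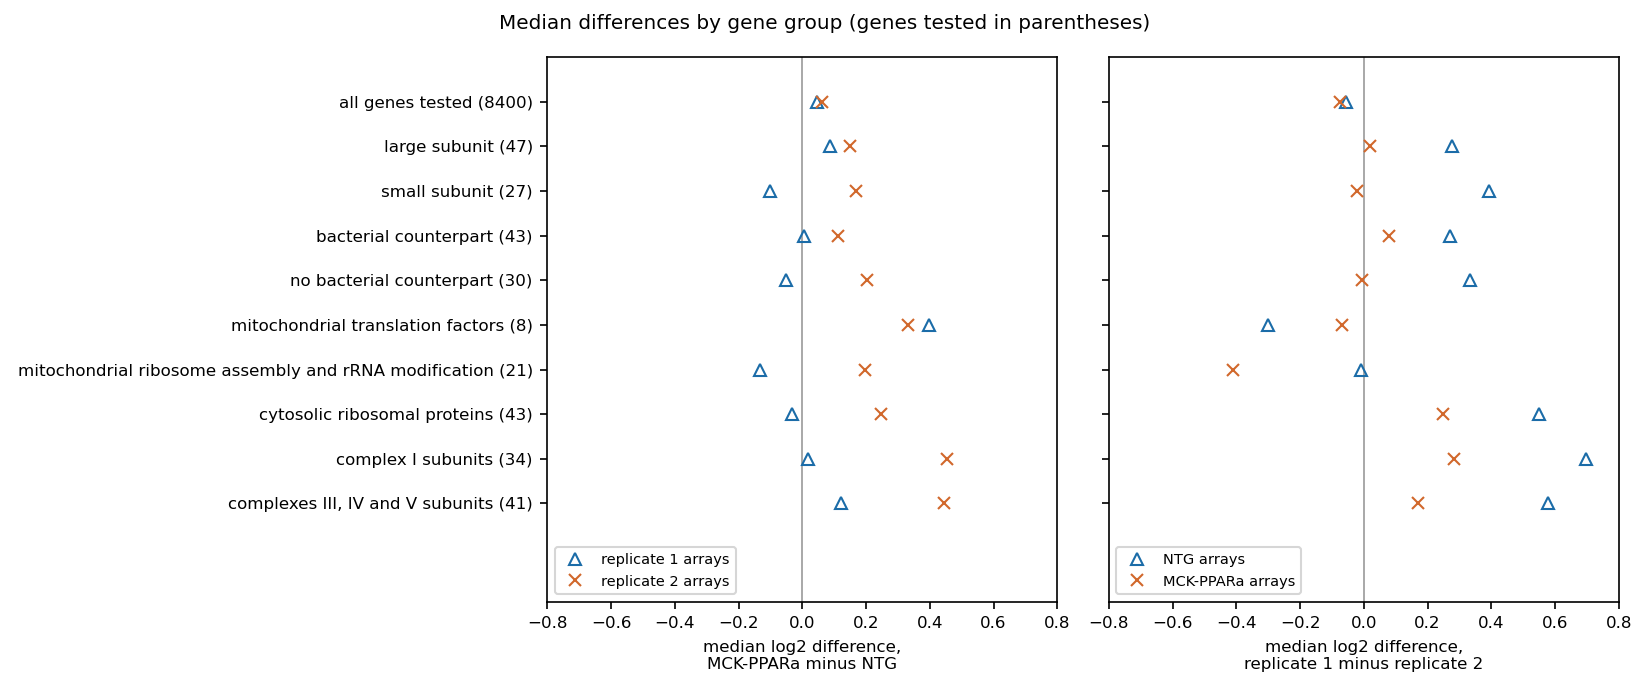
Median log2 difference of each gene group by genotype within each replicate number (left) and by replicate number within each genotype (right), with the number of genes tested in parentheses. Large and small subunit lie within 0.17 of 0 on the left, and on the right their NTG triangles stand at 0.28 and 0.39 while their MCK-PPARa crosses lie at 0.02 and -0.02.

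Probe sets of one gene often disagreed. The 74 members had 127 single-symbol probe sets, and 33 members had more than 1, up to 7 for Mrpl15. In 20 of these 33 the probe sets differed in sign, and in 3 they did so by more than 1 on the log2 scale, namely Mrpl11, Mrpl38 and Mrps25. Some of the 20 differed only by values near 0, such as Mrpl39 (-0.005 to 0.15) and Mrpl28 (-0.03 to 0.13). The same share over all genes was not counted, so the members are not set apart by it. For Mrpl38 the brightest set gave -0.09 ± 0.35 (2368 and 2424 in NTG, 2965 and 1707 in MCK-PPARa). Its second set gave 1.36, from signals of 45.2 and 134 to 287 and 341, which lie under the filter on dim signals. For Mrps25 a dim set at 140 to 380 gave 0.93 and another at 165 to 244 gave -0.30. A further 3 probe sets carry an Mrpl or Mrps symbol together with another gene's and were left out by the rule. The set shared by Mrps34 gave -0.06, while those shared by Mrpl30 (0.13) and Mrpl53 (0.07) are the only ones for these genes, which are therefore no members.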

How the data were processed

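Total RNA of gastrocnemius from 2 NTG and 2 MCK-PPARa samples was measured on 1 Affymetrix array each, treated as a 1-colour array. The authors deposited 1 table of signal intensity for 22690 probe sets, made with MAS5 per the submitters' processing notes, with version, settings and detection calls not given in the sources used here. Intensities, as deposited, are linear and above 0, and their 2% trimmed means of 1500.6 to 1500.7 mark global scaling, so no more normalization was applied. Array medians ran from 582 to 700.3. Of 22626 probe sets that are not controls, 20380 had 1 symbol, 691 several and 1555 none, by the platform annotation checked against RefSeq by Entrez ID. Signals were taken as log2(signal + 64.2), the offset being 10% of the median of all values, and genes were kept at or above the 40th percentile of mean log2 signal. limma 3.58.1 in R 4.3.3 (lmFit, eBayes with a variance trend, 7.86 degrees of freedom) tested the genotypes without a block, two-sided. The same fit was run on simulated arrays with independent noise. These lack the replicate difference of the real arrays and so cannot show how the fit behaves under it. The number of arrays limits the precision, and 2 against 2 cannot reach an exact two-sided permutation p below 0.333. Coordinates and promoters come from RefSeq GRCm38.p6.

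The replicate numbers 1 and 2 are shared by the groups and the labels do not say what they mark. The replicate block, other offsets, filters, scalings, probe set rules and leaving out each array were tried. Named members, by rule, were the 6 highest and 6 lowest changes of each subunit, any at an unadjusted p under 0.05 or past the threshold, the 3 brightest and 3 dimmest of each subunit, Mrpl10, Mrpl12, Mrps12, the Mrps18 genes, Mrps30 and those whose probe sets differed in sign by over 1. Of each other list up to 3 by smallest p were named. Genes added after their values were seen are marked in the text or serve the promoter, regulator and subunit descriptions. The members and lists were chosen with earlier results of these data known.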

Additional observations from a re-analysis of the deposited data

How the results depend on the processing

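The absence of calls among the 74 members held under all 13 alternatives run, with a lowest limma adjusted p of 0.086 under the replicate block. Signals carry no detection calls, and dim probe sets are the least certain. The count over all genes was 5 and became 196 with the replicate block, 2 under the stricter filter, 10 with the mean of all probe sets and 68 to 150 with single arrays left out. The replicate block left every change as it was, narrowed the errors and called 1 gene of the mitochondrial translation and transcription lists, Ppara, which also made up the count of 1 each time an array was left out. The pairing by number is only a hint from the data (correlation of 0.46 across 8400 genes between same-numbered arrays' deviations). The large-subunit median of 0.06 was -0.0037 with median centring and 0.037 to 0.188 with single arrays left out. The small-subunit median of 0.003 ran from -0.16 to 0.28 and the large minus small difference from -0.093 to 0.202 with single arrays left out, the extremes of the small subunit being those without NTG replicate 2 (-0.16) and without NTG replicate 1 (0.28). The cause was not tested. With 1 array left out the replicate numbers are no longer balanced between the genotypes, so genotype and replicate number cannot be fully told apart. With the mean of all probe sets the small-subunit median was 0.07 and the large minus small difference turned to -0.011, and with median centring the small-subunit median was -0.06. Leaving Mrps36 out, added after seeing the data, gave a small-subunit median of -0.005.

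Of 440 values of 34 named members under 13 alternatives, 401 kept their sign and none passed the threshold. Signs turned with the mean of all probe sets for Mrpl38 (0.64), Mrpl42 (0.018), Mrpl51 (0.027), Mrps9 (0.079) and Mrps25 (0.17), with median centring for Mrpl10 (-0.031), Mrps16 (-0.027) and Mrps18a (-0.051), and with quantile normalization for Mrps12 (0.013). With single arrays left out the large-subunit ranges that crossed 0 were -0.23 to 0.30 for Mrpl10, -0.79 to 0.31 for Mrpl12, -0.58 to 0.020 for Mrpl2, -0.18 to 0.54 for Mrpl23, -0.47 to 0.30 for Mrpl38, -0.62 to 0.45 for Mrpl47, -0.77 to 1.44 for Mrpl50 and -0.36 to 0.13 for Mrpl51. Those of the small subunit were -0.27 to 0.24 for Mrps12, -0.50 to 0.58 for Mrps16, -0.57 to 0.60 for Mrps18a, -0.044 to 0.70 for Mrps18b, -0.44 to 0.30 for Mrps18c, -0.98 to 0.76 for Mrps21, -0.75 to 0.48 for Mrps25, -0.26 to 0.23 for Mrps30, -0.58 to 0.26 for Mrps34, -0.22 to 1.03 for Mrps35 and -0.068 to 0.71 for Mrps6. Each of these was tested with the lone remaining array of its group assumed to vary like the other group.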
